A study of Mus musculus with 6 samples.

Results

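The translation initiation factors of wound macrophages were taken from the expression table as every protein-coding gene whose symbol begins with Eif and a digit, leaving out the Eif2ak kinases, which modify an initiation factor but are not part of one. The rule used symbols alone and no measured value, but it was chosen with earlier results of these data known. It found 51 of the 15168 genes in the table, and 49 of them passed the filter on low counts and were tested among 11878 genes. All samples were macrophages from the skin of wild-type female C57BL6/J mice that had received 10 mm full-thickness wounds on the back, harvested 3 days after wounding. Young mice were 12 weeks old and aged mice 24 months old by the sample labels, with 3 samples per age that carry the set letters A, B and C. Cells were sorted as F4/80+ CD64+, a gate that holds the surface proteins of macrophages. The labels do not say whether the 3 samples of an age came from separate mice, so the p-values given here measure the spread between these samples only.

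Initiation factors bring the ribosome, the initiator tRNA and the mRNA together. eIF2 carries the initiator tRNA to the small subunit, which eIF1, eIF1A, eIF3 and eIF5 prepare for scanning, while eIF4E, eIF4G and the helicase eIF4A (together eIF4F) load it onto the capped end of the mRNA. eIF2B recharges eIF2 with GTP after each round, and kinases that phosphorylate eIF2α block this step, which lowers general translation and favours that of Atf4, the central transcription factor of the integrated stress response. In macrophages this machinery is known to be adjusted when the cells are activated and secrete large amounts of protein.

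Libraries held 15270103 to 17927483 counts. The gate's own genes were present in every sample, with Fcgr1 (CD64) at 422 to 467 CPM (counts scaled to library size, with edgeR's TMM factor for library composition) in young and 486 to 514 CPM in the aged samples. Adgre1 (F4/80) lay at 290 to 357 CPM in the young against 172 to 241 CPM in the aged samples. Itgam (CD11b, also part of the sort by the study's methods) lay at 334 to 402 CPM in the young against 702 to 822 CPM in the aged samples. Its log2 fold change of 0.99 (adjusted p 0.00735 in edgeR) was opposite in sign to that of Adgre1 at -0.69 (adjusted p 0.0292 in edgeR). Of the general macrophage genes, Lyz2 and Cd68 were lower in every aged sample, at log2 fold changes of -0.68 and -0.41, without passing the test (adjusted p 0.0753 and 0.121 in edgeR). Csf1r and Mertk overlapped, at 0.12 and -0.72. Ptprc (CD45, another part of the sort by the study's methods) overlapped as well, at 0.26. Of 11 tested neutrophil markers 4 were higher in aged samples at an adjusted p under 0.05 in edgeR, beside 9.73% of all tested genes. The list summed to 651 to 1008 CPM in the young against 737 to 1362 CPM in the aged samples, which overlapped. By the study's methods Ly6G+ cells were not excluded, and the sort may hold a minor spillover of neutrophils. Keratinocyte and fibroblast markers summed to 101 and 97.9 CPM in the aged sample B, against at most 0.727 and 32.8 CPM in young samples, and the keratinocyte sums of the aged samples A and C, 1.96 and 1.61 CPM, also exceeded those of every young sample. Endothelial markers summed to 9.91 to 11.2 CPM in the young against 25.0 to 30.4 CPM in the aged samples, and the gene of the list that was higher in every aged sample was Pecam1, which some leukocytes also carry, with a log2 fold change of 1.69 (adjusted p 0.00220 in edgeR). The defining endothelial genes Kdr, at 1.95 CPM in the young and 1.46 CPM in the aged samples, and Cdh5, at 0.429 and 0.127 CPM, overlapped between the ages. Of 3 erythroid genes 2 were lower in aged samples at an adjusted p under 0.05 in edgeR, beside 7.97% of all tested genes. The erythroid list summed to 106.5 to 339 CPM in the young and 31.0 to 107 CPM in the aged samples. The sums of the dendritic and of the mast cell markers were highest in sample A of each age. Single genes did not all follow, with Flt3 highest in the young sample C and Kit in the young sample B among the young samples. In samples A, B and C the dendritic sums were 40.05, 7.51 and 9.71 CPM in young and 85.7, 22.2 and 33.5 CPM in aged. The mast cell sums were 41.1, 22.1 and 11.9 CPM in young and 30.3, 0.764 and 0.679 CPM in aged. The part of these other cells in the results below was not tested, and in bulk samples fewer cells of a type and less RNA per cell cannot be told apart.

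Initiation factor transcripts took up a similar part of the libraries at both ages. Their counts made up 0.753, 0.585 and 0.640% of all counts in the young samples A, B and C and 0.646, 0.627 and 0.602% in the aged samples. The range of the aged samples lay inside that of the young samples. On the TMM scale the sums were 6202 ± 735 CPM in the young against 6657 ± 263 CPM in the aged samples (SD, n = 3), so the sign of the small difference turned with the scaling.

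Levels per length of transcript spanned orders of magnitude, from the abundant Eif5a and Eif1 to family members that were barely read. Eif5a, whose hypusine-modified protein helps ribosomes through difficult stretches, stood at 724 CPM per kilobase averaged over both ages. Eif1, which guards the choice of start codon, followed at 620.4 CPM per kilobase. The means were 754 for Eif5a and 493 for Eif1 in the young samples and 693 and 747.5 in the aged samples. In edgeR neither gene passed the test between the ages (adjusted p 0.673 and 0.0925). Eif6, which keeps the large subunit apart until it is needed, stood at 188 and Eif4a1 at 152 CPM per kilobase, and Eif3k at 139 CPM per kilobase was the highest subunit of eIF3. The value of Eif4a1 leaves out the counts placed on a nearly identical pseudogene, which held 67.0% or more of their joint counts in every sample. At the other end were Eif4ebp2 at 0.556, Eif5a2 at 0.433, Eif4a3l1 at 0.290 and Eif4ebp3 at 0.135 CPM per kilobase.

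Of these genes 3 differed between the ages past the test in edgeR, and more did so with other tools. With edgeR's quasi-likelihood test, 17.7% of all tested genes had an adjusted p under 0.05 between aged and young samples, in 9.73% with aged higher and in 7.97% with aged lower. Among the 49 tested factors 3 passed (6.12%), all lower in aged samples, and they were Eif2b3, Eif2b4 and Eif2d. None was higher past that threshold, and none combined it with a change of over 2-fold, a mark that 8.79% of all genes reached. With the DESeq2 test 3 factors were higher and 4 lower, or 14.3% of the 49 factors beside 16.9% of all genes. With limma-voom 3 were higher and 9 lower, or 24.5% beside 30.7% of all genes. At an unadjusted p under 0.05 in edgeR, which 34.5% of all genes reached, 4 factors were higher and 8 lower. The median log2 fold change of the factors was -0.08, beside -0.02 over all genes. Their median absolute log2 fold change was 0.23, beside 0.42 over all genes and 0.40 over the 9776 tested genes within the factors' range of CPM.

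**Figure D1:**
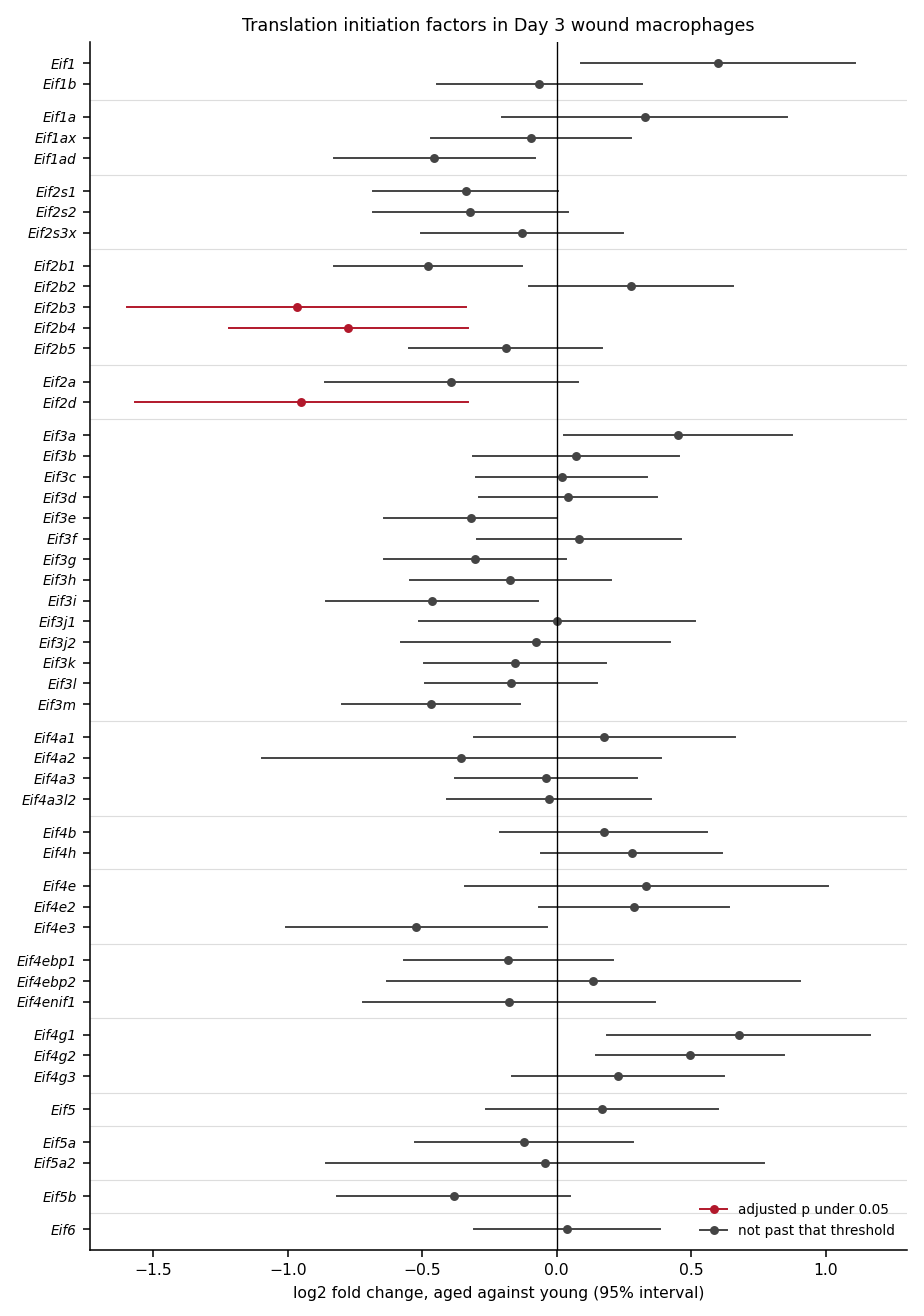
Log2 fold change of aged against young samples (x axis) for the 49 tested initiation factors (y axis, grouped by factor), with points for the edgeR estimate and bars for its 95% interval (3 samples per age). Red marks an adjusted p under 0.05, reached by Eif2b3, Eif2b4 and Eif2d, all to the left of 0, while the points furthest to the right are Eif4g1 at 0.68 and Eif1 at 0.60.

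Counting genes whose 3 aged samples all lay beyond the 3 young ones gave 15 factors lower (30.6%) and 5 higher (10.2%), with 29 overlapping, so that 40.8% were separated. Over all tested genes 38.2% were separated, 19.0% with aged lower and 19.2% with aged higher. The 15 were Eif1ad, Eif2s1, Eif2s2, Eif2b1, Eif2b3, Eif2b4, Eif2b5, Eif2a, Eif2d, Eif3e, Eif3g, Eif3i, Eif3l, Eif3m and Eif5b. The 5 were Eif3a, Eif4h, Eif4e2, Eif4g1 and Eif4g2. By factor, 4 of 5 genes of eIF2B, 2 of 3 of eIF2, 2 of 2 of eIF2A and eIF2D and 5 of 14 of eIF3 were separated on the lower side. All of the 5 higher genes but Eif3a belong to the eIF4 families, and 2 of them are among the 3 genes of eIF4G.

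eIF2B had the largest share of separated genes among the factors with 3 or more, with 4 of its 5 genes lower in every aged sample. It is a guanine nucleotide exchange factor in which Eif2b3 (γ) and Eif2b5 (ε) form the catalytic part and Eif2b1 (α), Eif2b2 (β) and Eif2b4 (δ) the regulatory part that senses phosphorylated eIF2. Eif2b3 (chr4:117019402-117087306, mm10, plus strand) had 18.3, 13.1 and 18.7 CPM in the young samples A, B and C and 7.15, 12.4 and 6.11 CPM in the aged samples. The aged sample B came close to the young sample B, and the other aged samples were far below. The log2 fold change was -0.97 ± 0.28 (SE), with an adjusted p of 0.0418 in edgeR. With the set letter as a replicate block it was -1.01, with an adjusted p of 0.0541. Eif2b4 (chr5:31187558-31193430, minus strand) had 14.7, 19.8 and 15.7 CPM in the young and 10.4, 9.30 and 9.57 CPM in the aged samples. The aged samples were close together and all below the young ones. Its log2 fold change was -0.77 ± 0.20 (SE), with an adjusted p of 0.0281 in edgeR.

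The remaining subunits of eIF2B did not pass in edgeR, while Eif2b1 did with limma-voom (adjusted p 0.0484). Eif2b1 had 28.8, 29.1 and 26.2 CPM in the young and 20.2, 19.5 and 20.6 CPM in the aged samples, a log2 fold change of -0.48 ± 0.16 (SE) with an adjusted p of 0.0610 in edgeR. Eif2b5, the catalytic subunit, was separated by a narrow margin, at 25.2 ± 0.868 CPM in the young and 22.1 ± 1.89 CPM in the aged samples (SD, n = 3). Eif2b2 was the exception in sign, with 57.2, 42.1 and 48.4 CPM in the young and 59.0, 54.1 and 65.7 CPM in the aged samples. These overlapped, and the log2 fold change of 0.28 had an adjusted p of 0.280 in edgeR. The proportion of these subunit transcripts moved with them, with 3.90, 2.12 and 3.09 Eif2b2 counts per Eif2b4 count in young and 5.65, 5.82 and 6.86 in aged samples. For Eif2b2 against Eif2b3 the ratio was 3.13, 3.20 and 2.59 in young and 8.25, 4.38 and 10.7 in aged samples. Neither ratio overlapped between the ages. The ratios were chosen after the values were seen and were not tested.

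**Figure D2:**
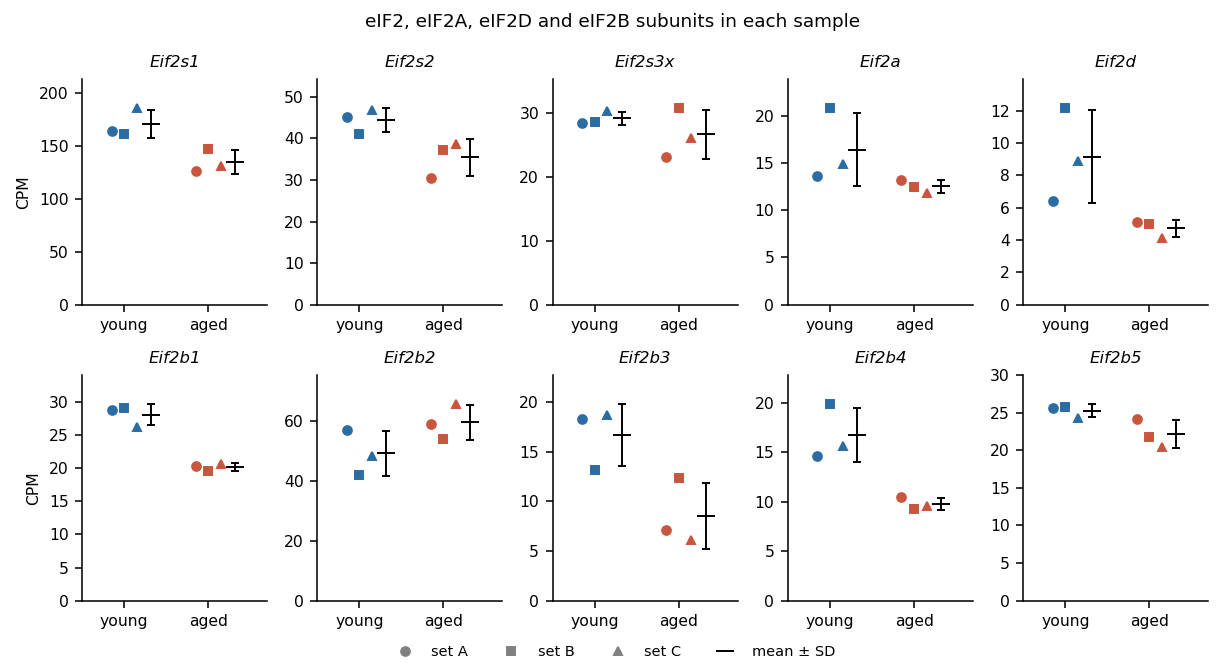
CPM (y axis, each from 0) of the 3 subunits of eIF2, of Eif2a and Eif2d and of the 5 subunits of eIF2B in each young and aged sample, with the set letter as the symbol and the mean ± SD in black. Eif2b3, Eif2b4, Eif2b1 and Eif2b5 lie lower in every aged sample, and Eif2b2 does not.

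eIF2D and eIF2A are proteins outside the eIF2 complex that can bring tRNA to the ribosome on particular mRNAs, and both genes were separated on the lower side. Eif2d (chr1:131153181-131187658, plus strand) had 6.42, 12.1 and 8.92 CPM in the young and 5.11, 4.97 and 4.14 CPM in the aged samples. The young samples were spread widely and the lowest of them, A, lay just above the aged samples. The log2 fold change was -0.95 ± 0.28 (SE), with an adjusted p of 0.0419 in edgeR. Eif2a had 13.6, 20.8 and 14.9 CPM in the young and 13.2, 12.5 and 11.9 CPM in the aged samples. Its log2 fold change was -0.39, with an adjusted p of 0.217 in edgeR.

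All 3 calls depended on single libraries. With one sample left out, Eif2b3 passed only without the aged sample B (adjusted p 0.0127 in edgeR) and lay between 0.0608 and 0.153 otherwise. Eif2b4 passed without the young sample A (adjusted p 0.0193) or the aged sample A (0.0469) and was otherwise at 0.0691 or above. Eif2d passed only without the young sample A (adjusted p 0.0151) and otherwise lay between 0.0702 and 0.148. In every one of these fits the 3 genes stayed below 0, with log2 fold changes from -1.32 to -0.77 for Eif2b3, from -0.86 to -0.63 for Eif2b4 and from -1.15 to -0.68 for Eif2d. Such fits have fewer samples, and the share of all genes called ranged from 1.78 to 22.3%.

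The kit does not keep the strand, so reads in exons that overlap a gene of the other strand cannot be assigned by strand. Eif2b4, with a mean of 215 counts, shares 204 exonic bases with Snx17 at 1272 counts, whose log2 fold change was 0.14 with an adjusted p of 0.593 in edgeR. Eif2d, with a mean of 113 counts, shares 78 exonic bases with Rassf5 at 311 counts, whose log2 fold change was -0.52 with an adjusted p of 0.144 in edgeR. Eif2a, at 234 counts, shares 72 exonic bases with Serp1 at 12758 counts. The part of such shared reads in these results was not tested. In all, 12 factors overlap another gene of the table in exons.

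A promoter stretch is shown for the called gene Eif2d, from the RefSeq promoter table (GRCm38.p6), beside that of Eif2b2, the subunit that did not lie lower. The start of a gene can differ between RefSeq and the deposited table, by 26 bases for Eif2d and 291 bases for Eif2b4, and in each of these genes the deposited start lies further upstream. The stretch of Eif2d therefore ends before the deposited start, and none is printed for Eif2b4, where the bases before the RefSeq start are exonic in GENCODE M21. The sequences run 5′ to 3′ on the plus strand, the strand of both genes, with 74 bases at chr1:131153107-131153180 for Eif2d and 100 bases at chr12:85219381-85219480 for Eif2b2. Capitals mark CGGAAG, the core bound by ETS factors, and GGGCGG, the GC box, on either strand.
Eif2d: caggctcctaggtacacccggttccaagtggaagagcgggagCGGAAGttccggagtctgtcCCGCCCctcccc
Eif2b2: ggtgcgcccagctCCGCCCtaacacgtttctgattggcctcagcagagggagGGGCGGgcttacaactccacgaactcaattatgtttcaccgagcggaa
Each stretch holds a GC box, and that of Eif2d also a CGGAAG, while a CGGAAG of Eif2b2 crosses the start. Of the factors 39 matched the table, and over the 300 bases around the RefSeq start (250 before and 50 after) 56.4% of them held CGGAAG, beside 37.4% of 8753 tested genes with an entry. GGGCGG was held by 76.9% of the factors and 68.4% of the tested genes, CACGTG (the E-box, a site of MYC proteins) by 25.6 and 12.2%, and CCAAT by 35.9 and 43.2%. TGATGNAAT, the composite site at which ATF4 acts, was held by none of the 39 factors and by 0.491% of the tested genes. Eif4ebp1 and the called gene Eif2b3 are not among the 39, so their promoters were not searched. These are matches of letters on both strands and describe the windows only.

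eIF2 itself tended lower without passing the test in edgeR. Eif2s1, which encodes the α subunit that the stress kinases phosphorylate, had 164, 161 and 185 CPM in the young and 126, 147 and 130.4 CPM in the aged samples. The samples did not overlap, and the log2 fold change of -0.34 ± 0.16 (SE) had an adjusted p of 0.151 in edgeR. With limma-voom Eif2s1 passed, at an adjusted p of 0.0439. Eif2s2 (β) gave -0.32, also separated, and Eif2s3x (γ) gave -0.13 with overlapping samples.

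The factors eIF1, eIF1A and eIF5 act on the small subunit as it searches for the start codon. Eif1 had 824, 494 and 639 CPM in the young against 1186, 787 and 991 CPM in the aged samples. The samples overlapped, since the young sample A lay above the aged sample B. Its log2 fold change was 0.60 ± 0.23 (SE), with an adjusted p of 0.0925 in edgeR. With 1 sample left out Eif1 passed in 1 of 6 edgeR fits, without the young sample A (adjusted p 0.0338). That fit called 22.3% of all genes. Without the young sample B the adjusted p was 0.27 in edgeR. With all samples Eif1 passed in 3 of 7 other fits. The adjusted p was 0.0439 in DESeq2, 0.0266 in limma-voom and 0.0355 in edgeR with the set letter as a replicate block. Eif1 took 14.8% of the factors' counts in aged and 10.4% in young samples. Eif1a had 257, 155 and 251 CPM in the young against 205, 309 and 319 CPM in the aged samples, with a log2 fold change of 0.33 and an adjusted p of 0.359 in edgeR. Eif1ad was separated on the lower side, at 35.8 ± 5.30 CPM in the young and 26.1 ± 0.581 CPM in the aged samples (SD, n = 3). Its adjusted p was 0.0852 in edgeR and 0.0465 in limma-voom. Eif5, which makes eIF2 hydrolyse its GTP at the start codon, had 468, 358 and 515 CPM in the young against 449, 468 and 591 CPM in the aged samples. These overlapped, and the log2 fold change of 0.17 had an adjusted p of 0.571 in edgeR.

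The 14 tested genes of eIF3, the large scaffold that holds the scanning complex together, changed little as a group, with a median log2 fold change of -0.12. None passed the test in edgeR, where 1 was higher and 2 lower at an unadjusted p under 0.05, and Eif3m came closest. It had 85.6, 93.9 and 101.9 CPM in the young and 68.4, 66.2 and 68.7 CPM in the aged samples. The aged samples agreed closely and lay below all young ones, and the log2 fold change of -0.47 ± 0.15 (SE) had an adjusted p of 0.0540 in edgeR. With all samples the adjusted p was 0.0422 in DESeq2 and 0.0152 in limma-voom. With 1 sample left out Eif3m passed in 1 of 6 edgeR fits, without the young sample A (adjusted p 0.0378). Without the young sample C it was at 0.198. Eif3i passed in limma-voom with all samples (adjusted p 0.0167) and in edgeR without the young sample A (0.0352). Its highest adjusted p with 1 sample left out was 0.303 in edgeR, without the aged sample C. Eif3e, Eif3g, Eif3i and Eif3l were also separated on the lower side, at log2 fold changes from -0.46 to -0.17. Eif3a, the largest subunit, was the only one separated on the higher side, at 0.45 with an adjusted p of 0.122 in edgeR. Its highest value, 188 CPM, came from the aged sample B, which also held the keratinocyte and fibroblast transcripts, and without that sample its log2 fold change was 0.26 with an adjusted p of 0.366. Eif3h, the subunit with the highest CPM averaged over both ages (Eif3a was higher in the aged samples), had 119, 149 and 158 CPM in the young against 136, 113 and 129 CPM in the aged samples, with a log2 fold change of -0.17. Eif3c hardly moved between the ages, at a log2 fold change of 0.02, with 69.3 to 71.3 CPM in the young and 69.3 to 73.6 CPM in the aged samples.

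eIF4G was the factor whose genes lay highest in aged samples, with a median log2 fold change of 0.49, all 3 genes above 0 and none past the threshold in edgeR (2 passed in DESeq2). Eif4g1, the scaffold that joins the cap-binding protein, the helicase and eIF3, had 26.7, 20.4 and 22.1 CPM in the young and 30.9, 49.2 and 30.6 CPM in the aged samples. The aged sample B, which also held the keratinocyte and fibroblast transcripts, stood well above the other aged samples, and it was the highest sample for all 3 genes of eIF4G. The summed level of the 3 genes was 392 CPM in that sample, against 316 and 344 CPM in the other aged samples and 237 to 264.5 CPM in the young samples. The log2 fold change was 0.68 ± 0.22 (SE) with an adjusted p of 0.0575 in edgeR, and without that sample it was 0.43 with an adjusted p of 0.183. Without the young sample A the adjusted p was 0.0377. Eif4g2, a relative that lacks the site for eIF4E and serves mRNAs translated without it, had 215, 193 and 205 CPM in the young and 260.3, 312 and 291 CPM in the aged samples. All aged samples were higher, with a log2 fold change of 0.49 ± 0.16 (SE) and an adjusted p of 0.0534 in edgeR, and 0.44 with 0.128 without the aged sample B. Eif4g3 gave 0.23 with overlapping samples, and 0.12 without that sample.

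**Figure D3:**
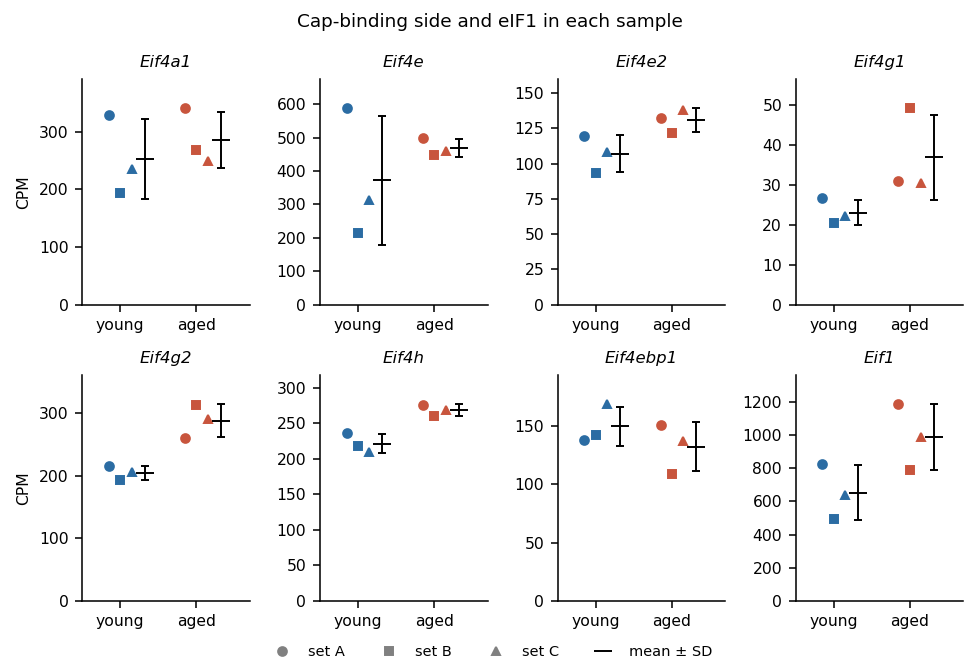
CPM (y axis, each from 0) of 7 genes of the cap-binding side (Eif4a1, Eif4e, Eif4e2, Eif4g1, Eif4g2, Eif4h and Eif4ebp1) and of Eif1 in each young and aged sample, with the set letter as the symbol and the mean ± SD in black. Eif4g1, Eif4g2, Eif4h and Eif4e2 are higher in every aged sample, and the young sample A stands apart for Eif4e at 588 CPM.

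The cap-binding protein and its inhibitors gave no call with all samples in edgeR. Eif4e had 588, 216 and 313 CPM in the young and 499, 448 and 460.3 CPM in the aged samples. The young sample A lay above all aged samples and the other young samples below them, and the log2 fold change of 0.33 ± 0.30 (SE) had an adjusted p of 0.469 in edgeR. Without the young sample A, where 22.3% of all genes were called, it was 0.83 with an adjusted p of 0.0195 in edgeR. No other fit with 1 sample left out passed, and without the young sample B it was 0.06 with an adjusted p of 0.905. Eif4e2, a cap-binding relative that represses translation, was separated on the higher side at 0.29. Eif4e3 gave -0.52 with overlapping samples and an adjusted p of 0.120 in edgeR and 0.0494 in limma-voom. With 1 sample left out Eif4e3 passed in 1 of 6 edgeR fits, without the young sample A (adjusted p 0.0376). Without the young sample B it was at 0.399.

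Among the binding proteins that hold eIF4E inactive until mTORC1 phosphorylates them, Eif4ebp1 had 138, 143 and 169 CPM in the young against 151, 109 and 137 CPM in the aged samples. The samples overlapped, and the log2 fold change of -0.18 had a 95% interval from -0.57 to 0.21. There were 0.235, 0.663 and 0.539 Eif4ebp1 counts per Eif4e count in young and 0.302, 0.244 and 0.298 in aged samples, so that the young sample A lay on the low side of this ratio. Eif4ebp2 was read at 3.06 ± 0.942 CPM in the young and 3.37 ± 0.867 CPM in the aged samples (SD, n = 3). Eif4ebp3 was not tested, with 0, 8 and 2 counts in young and 0 counts in each aged sample, which allow up to 3 counts each. Eif4enif1, whose protein carries eIF4E into the nucleus, was read at 6.38 ± 1.19 CPM in the young and 5.65 ± 0.388 CPM in the aged samples.

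Among the helicase genes Eif4a1 led, with 328, 194 and 236 CPM in the young and 340.3, 268 and 249 CPM in the aged samples. These overlapped, and the log2 fold change of 0.18 ± 0.22 (SE) had an adjusted p of 0.601 in edgeR. Eif4a2 spread from 14.6 CPM in the aged sample A to 42.8 CPM in the young sample C, with a log2 fold change of -0.35. Eif4a3, part of the complex that marks exon junctions, gave -0.04, and Eif4a3l1 was not tested, with 0.456 CPM at each age. Of the helicase's cofactors, Eif4h had 236, 218 and 209 CPM in the young against 276, 259 and 269 CPM in the aged samples. All aged samples were higher, and the log2 fold change of 0.28 ± 0.15 (SE) had an adjusted p of 0.219 in edgeR. Eif4b gave 0.18 with overlapping samples.

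Several of these genes share reads with near-identical copies elsewhere in the genome. In GENCODE M21 transcripts 17 factors had a copy of at least 95% identity over at least 150 bases. Eif4a1 and the processed pseudogene Eif4a-ps4 differ at 1 of 1218 aligned coding bases, Eif2s2 and the pseudogene Gm9892 at 5 of 992, and Eif2s3x and the pseudogene Gm2223 at 0 of 1350. The windows of 60 bases below, from the coding strand, show how little there is to tell the copies apart, with the differing base in capitals. Positions are counted from the A of the start codon, and the differences shown are G534A for Eif4a1 (positions 504 to 563) and T66C for Eif2s2 (positions 36 to 95), with the base of the factor first.
Eif4a1: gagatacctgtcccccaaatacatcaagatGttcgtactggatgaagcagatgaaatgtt
Eif4a-ps4: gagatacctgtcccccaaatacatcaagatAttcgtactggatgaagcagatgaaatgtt
Eif2s2: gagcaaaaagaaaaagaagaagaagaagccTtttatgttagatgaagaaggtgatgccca
Gm9892: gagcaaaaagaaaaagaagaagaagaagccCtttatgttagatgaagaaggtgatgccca
The deposited counts placed 69.2 ± 1.19% of the joint counts of the first pair on the pseudogene in young and 68.9 ± 1.64% in aged samples (SD, n = 3). For the second pair the pseudogene held 48.8 ± 1.12% in young and 52.3 ± 1.22% in aged samples, and Gm2223 held 33.2 ± 1.22% and 30.5 ± 1.57% of its joint counts with Eif2s3x. The levels of Eif4a1, Eif2s2 and Eif2s3x are therefore uncertain. With its copy Eif2s3x was at 43.7 ± 1.94 CPM in the young and 38.3 ± 4.67 CPM in the aged samples, and its log2 fold change moved to -0.19. With their copies Eif4a1 and Eif2s2 were at 819 ± 207 and 86.6 ± 3.82 CPM in the young and 916 ± 109 and 74.3 ± 9.30 CPM in the aged samples. Copies that are pseudogenes or factors themselves, and that align over at least 50% of either transcript, were then added to their factors. Other protein-coding genes were not added, which left out Emd (96.7% identity to Eif1 over 662 bases, at a mean of 1286 counts beside 13050.0 for Eif1), Gm20696 for Eif4e3 and Maskbp3 for Eif4ebp3. With these additions 3 factors were lower and 0 higher at an adjusted p under 0.05 in edgeR, and Eif3m moved to 0.0656. Eif2b3, Eif2b4 and Eif2d have no such copy.

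Among the late-acting factors no gene passed the test in edgeR, DESeq2 or limma-voom, or an unadjusted p under 0.05 in edgeR. Eif5a had 1136, 926 and 1190.0 CPM in the young against 1144, 941 and 904 CPM in the aged samples, with a log2 fold change of -0.12 and a 95% interval from -0.53 to 0.28. Eif6 had 291, 256 and 287 CPM in the young and 309.6, 275 and 272 CPM in the aged samples. Its log2 fold change of 0.04 had a 95% interval from -0.31 to 0.39. Eif5b, the GTPase that joins the ribosomal subunits, had 55.2, 54.1 and 63.6 CPM in the young and 32.5, 49.7 and 50.5 CPM in the aged samples. The aged sample A was lowest, and the log2 fold change of -0.38 had an adjusted p of 0.194 in edgeR. The factors had a median coefficient of variation of 14.0% among the young and 10.4% among the aged samples, beside 17.1 and 16.3% over the tested genes within their range of CPM, a difference that was not tested.

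**Figure D4:**
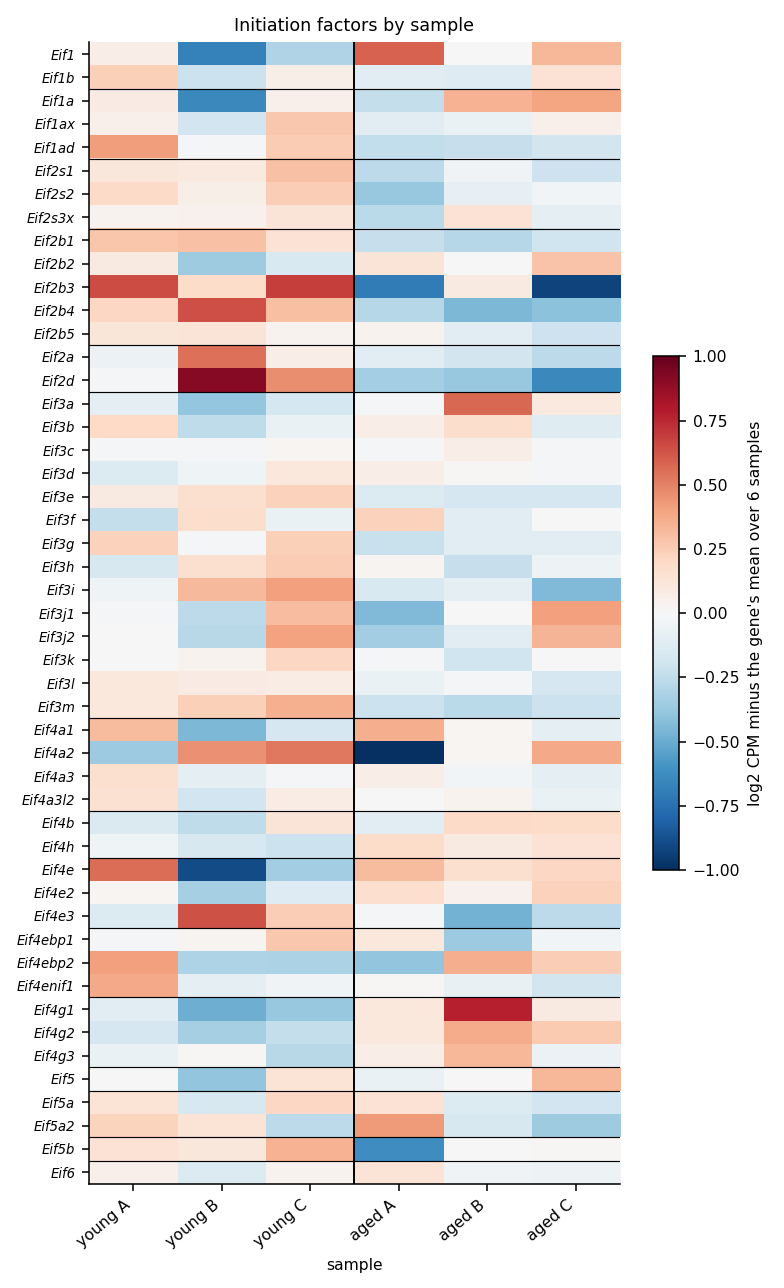
Log2 CPM of each tested factor in each sample (columns) minus the gene's mean over the 6 samples, from blue (lower) to red (higher), with lines between factors and between the ages; values past 1 or -1 take the end colour. Most rows of eIF2 and eIF2B (not Eif2b2) and Eif2d shift from red to blue between young and aged samples, eIF4G from blue to red, and single cells such as Eif4a2 in the aged sample A and Eif4e in the young samples A and B stand out.

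The genes that control or follow these factors were looked up from 6 lists. The lists were chosen with earlier results of these data known, so the shares below describe them and do not test them. Of the 4 eIF2 kinases 1 (25.0%, beside 17.7% of all genes) was higher in aged samples, Eif2ak3 (PERK, the kinase of endoplasmic reticulum stress). It had 3.93, 3.46 and 3.70 CPM in the young and 7.01, 10.6 and 10.5 CPM in the aged samples. The ages were well apart, with a log2 fold change of 1.34 ± 0.26 (SE) and an adjusted p of 0.0111 in edgeR. Among the 5 subunits of the eIF2α phosphatases 1 was higher, Ppp1r15b, which directs the phosphatase to eIF2α in unstressed cells. Its log2 fold change was 1.13 ± 0.21 (SE), with an adjusted p of 0.00923 in edgeR.

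Of the 17 tested genes among Atf4 and its targets 7 were higher and 1 lower in aged samples, with a median log2 fold change of 0.60. That is 47.1% of the list, beside 17.7% of all tested genes (9.73% higher and 7.97% lower). Since the list was chosen with earlier results of these data known, this share is not a test of it. Chac1, which degrades glutathione, rose by 3.38, Slc7a11, which imports cystine, by 2.39 and Trib3, a pseudokinase that feeds back on ATF4, by 2.24 on the log2 scale (adjusted p 0.00436, 0.00127 and 0.00436 in edgeR). Slc7a11 had 71.9, 50.7 and 58.0 CPM in the young and 419.6, 257 and 271 CPM in the aged samples. The lower gene was Shmt2, a mitochondrial enzyme of one-carbon metabolism, at -0.89 with an adjusted p of 0.0235 in edgeR. Atf4 was itself separated on the higher side at 0.45, with an adjusted p of 0.0930 in edgeR. Eif4ebp1, which is known as a target of ATF4 and is an initiation factor gene by symbol, stayed at -0.18 as given above.

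In mTORC1, S6K and MNK 1 of 16 genes was higher, Mknk2 at 0.75, and 2 were lower, Tbc1d7 at -0.98 and Mknk1 at -0.67, so that 18.8% passed beside 17.7% of all genes. Mknk1 and Mknk2 encode the kinases that phosphorylate eIF4E when bound to eIF4G, and they lay on opposite sides. Of 20 initiation proteins outside the symbol rule 1 was higher, Ythdf1 at 0.86, and 2 lower, Pabpc4 at -1.86 and Mcts1 at -0.52, so that 3 of 20 passed. Mcts1, a partner in a complex that resembles eIF2D, had 63.7, 78.6 and 78.4 CPM in the young and 52.3, 49.2 and 52.2 CPM in the aged samples. Of 15 elongation and release genes 1 was higher (6.67%), Hbs1l at 0.65. Over the 6 lists 17 genes passed, and the counts without single samples are given in the closing section.

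**Figure D5:**
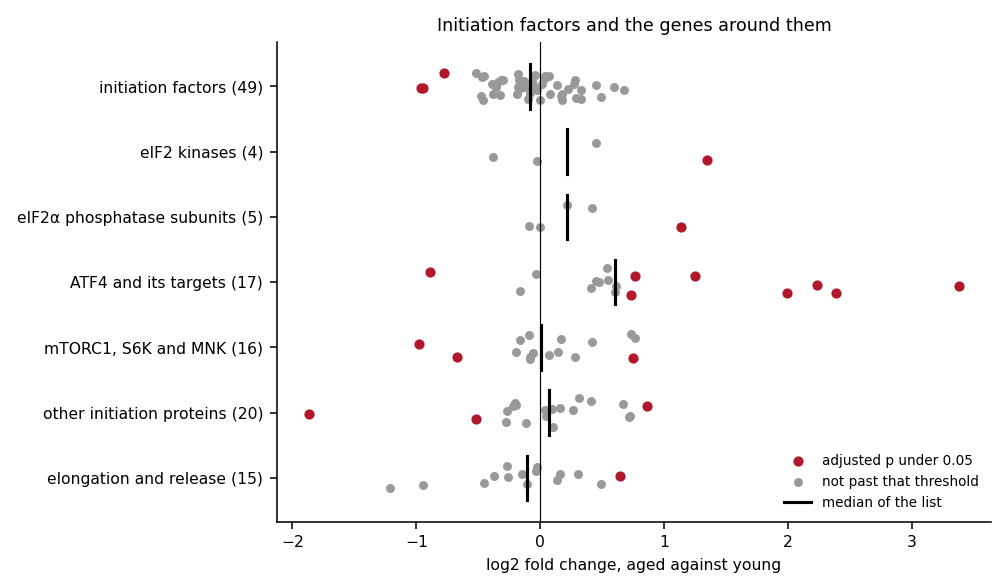
Log2 fold change of aged against young samples (x axis) for each tested gene of the initiation factors and of 6 lists around them (y axis, number of genes in brackets), with red for an adjusted p under 0.05 in edgeR and a bar for the median of the list. The factors lie in a narrow band from -0.97 to 0.68, while Atf4 and its targets reach 3.38.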

How the data were processed

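The members and the lists of related genes were chosen with earlier results of these data known. RNA of sorted macrophages was amplified with the SMART-Seq v4 kit, which keeps no strand. The authors aligned reads with STAR 2.7.3a to mm10 and deposited expected counts per gene, estimated in Partek on Ensembl transcripts 102 and not normalised, so reads of near-identical genes were divided by an estimate; the strand setting is not given in the sources used here. A second table of the authors, with scaled signal, p-values and fold changes of their own comparison, was not used. The design named counts, and the expected counts were rounded to whole numbers for the test.

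Genes were filtered with filterByExpr, scaled with TMM and tested with the quasi-likelihood test of edgeR 4.0.16 in R 4.3.3 (3 aged, 3 young samples), and p-values were adjusted by Benjamini-Hochberg over 11878 genes. Library totals were 15270103 to 17927483, and 1 count equalled 0.0553 to 0.0701 CPM, a counting precision that leaves out amplification. The biological coefficient of variation was 0.239. The test was checked on simulated counts. Transcript lengths and copies (BLAST 2.17.0) came from GENCODE M21, gene ends are those of the deposited table less 1 base, and promoters came from RefSeq.

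Named with values were members with an adjusted p under 0.05, the 3 closest above it, untested members, the binding proteins of eIF4E and, in each factor, the member with the highest CPM and that with the largest change; of the lists, at most 3 called genes per direction. Members outside this rule were named after their values were seen, as were the Eif2b2 ratios and the promoters. Alternatives were DESeq2 1.42.0 as size factors or as test, limma-voom (limma 3.58.1) with quality weights, other filters, the set letter as a block, an adjusted p under 0.1 and leaving out each sample; adding the counts of copies was chosen after seeing the data.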

Additional observations from a re-analysis of the deposited data

How the results depend on the processing

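The number of factors higher in aged samples at an adjusted p under 0.05 rose from 0 to 1 with DESeq2 size factors in edgeR (Eif4g2), to 1 with the set letter as a replicate block (Eif1), and to 3 with the DESeq2 test (Eif1, Eif4g1 and Eif4g2) and with limma-voom. The number lower rose from 3 to 9 with limma-voom, which also gave 1 past 2-fold and called 30.7% of all genes. At an adjusted p under 0.1, 3 were higher and 7 lower. The share of all genes at that threshold is not given here, so these counts have no background beside them. Leaving out each sample gave 0 to 3 higher, 0 to 5 lower, 0 to 1 past 2-fold, 4 to 22 genes of the related lists (17 with all samples: 22 without the young sample A, 8 without B, 4 without C, 10 without the aged sample A and 7 without C) and a median log2 fold change of -0.135 to -0.0142. Without the young samples B or C or the aged sample C no factor was lower past the threshold. These fits called 6.29, 1.78 and 4.45% of all genes. Without the young sample A there were 5 lower factors, and 22.3% of all genes were called. Fewer samples are one part of such fits by construction, and any other cause was not tested. The difference in summed share was -0.034 percentage points on raw counts and 0.046 on the TMM scale.

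Of 635 values for 49 factors under the alternatives, 570 kept their sign and side of the threshold, 15 of 3 factors fell short of it, 22 of 10 factors newly passed and 28 of 12 factors changed sign. With limma-voom Eif3c was at -0.000969, Eif3d at -0.0222 and Eif6 at -0.0083. Eif3j1 was at -0.000477 with no filter, -0.0109 with at least 10 counts in every sample and -0.0217 with the replicate block. Leaving out samples gave -0.198 to 0.0268 for Eif1ax, -0.169 to 0.0497 for Eif1b, -0.0239 to 0.204 for Eif3b, -0.00938 to 0.11 for Eif3d, -0.0136 to 0.209 for Eif3f, -0.23 to 0.191 for Eif3j1, -0.286 to 0.122 for Eif3j2, -0.0899 to 0.0396 for Eif4a3, -0.119 to 0.046 for Eif4a3l2, -0.302 to 0.116 for Eif5a2 and -0.0208 to 0.0784 for Eif6. None of these was past the threshold.

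The set letters were not taken to pair the samples, since their meaning is not given and deviations of same-lettered samples correlated at 0.181, -0.0206 and 0.114 and 3 of the 6 samples (both of A and the aged C) correlated best with their own letter. Under the replicate block Eif2b3 was at an adjusted p of 0.0541, Eif2b4 at 0.0387, Eif2d at 0.0497 and Eif1 at 0.0355 in edgeR.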
